A study of Caenorhabditis elegans with 2 samples.

Results

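The 9 genes described here are the 7 fatty acid desaturase genes of Caenorhabditis elegans, fat-1 to fat-7, with sbp-1 and mdt-15, which regulate them. They were taken by symbol out of 19973 protein-coding genes, and all 9 symbols were found in the annotation. No measured value entered the rule itself, but the genes were chosen with earlier results of these data known. ChIP-seq of PHA-4, the FoxA factor of pharynx and intestine, gave the data. There was 1 group with 2 biological replicates, each of whole L3 larvae of both sexes from strain OP37. Both replicates therefore shared the strain's unc-119(ed3) mutation and its wgIs37 insertion for pha-4. The labels call the target eGFP-pha-4 in 1 entry and pha-4 in another, and no list from untagged worms was analysed here. Larvae were used whole and peak lists hold no expression, so the tissue could not be checked against markers. The number of cells holding a peak and the occupancy in each cell cannot be told apart.

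Fatty acid desaturases put double bonds into the acyl chains that make up membrane and storage lipids. In the worm they act one after another, from the first double bond in palmitic or stearic acid to the long polyunsaturated acids, and the intestine is a main site of this work. SBP-1 is the worm's sterol regulatory element binding protein (SREBP), and MDT-15 is a Mediator subunit that serves as a coactivator of SBP-1 and of nuclear receptors at lipid genes. The question put to the data is where PHA-4 regions lie at these genes and how high they are.

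The authors deposited an optimal list of 7847 peaks that passed their reproducibility step, a pooled list of 30000 relaxed regions, and a relaxed list of 30000 regions for each replicate, all on build ce11. Each region carries a signal, the authors' own peak height, with scale and read depth not given in the sources used here. Signal in the optimal list ran from 41.4 to 862, with a median of 84.7. Replicate values are given as relative signal, which is signal over the median of the same replicate at optimal peaks, so that 1 is a typical optimal peak. The promoter window of a gene reaches 1000 bp upstream and 200 bp downstream from each annotated 5' end, and a gene with an optimal summit there was called.

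Of the 9 genes, 4 were called, namely fat-3, fat-4, fat-6 and sbp-1. That is 44.4% of them (95% Wilson interval 18.9 to 73.3), against 24.0% of all protein-coding genes, so the interval holds the genome's share. The other 5, fat-1, fat-2, fat-5, fat-7 and mdt-15, had no optimal summit in their windows. The genes differ in how much sequence was searched, since each annotated 5' end adds a window. There were 4 such ends at fat-3 and mdt-15, 3 at fat-4 and fat-6 and 2 at fat-2. The others, sbp-1 among them, had 1. All 9 had at least 1 optimal summit inside the gene or within 5 kb of a 5' end, against 49.1% of protein-coding genes, and this wider area is used below. It held 19 different peaks, 5 of which were shared by 2 of the genes because fat-1 lies beside fat-2 and fat-4 beside fat-3. Of the 19, 6 lay in the promoter window of 1 of the 9 genes and 9 in no promoter window, while 10 were nearer to the 5' end of a gene outside the 9. Their signal ran from 47.2 to 214, with a median of 84.2, close to the median of 84.7 of the whole list.

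**Figure D1:**
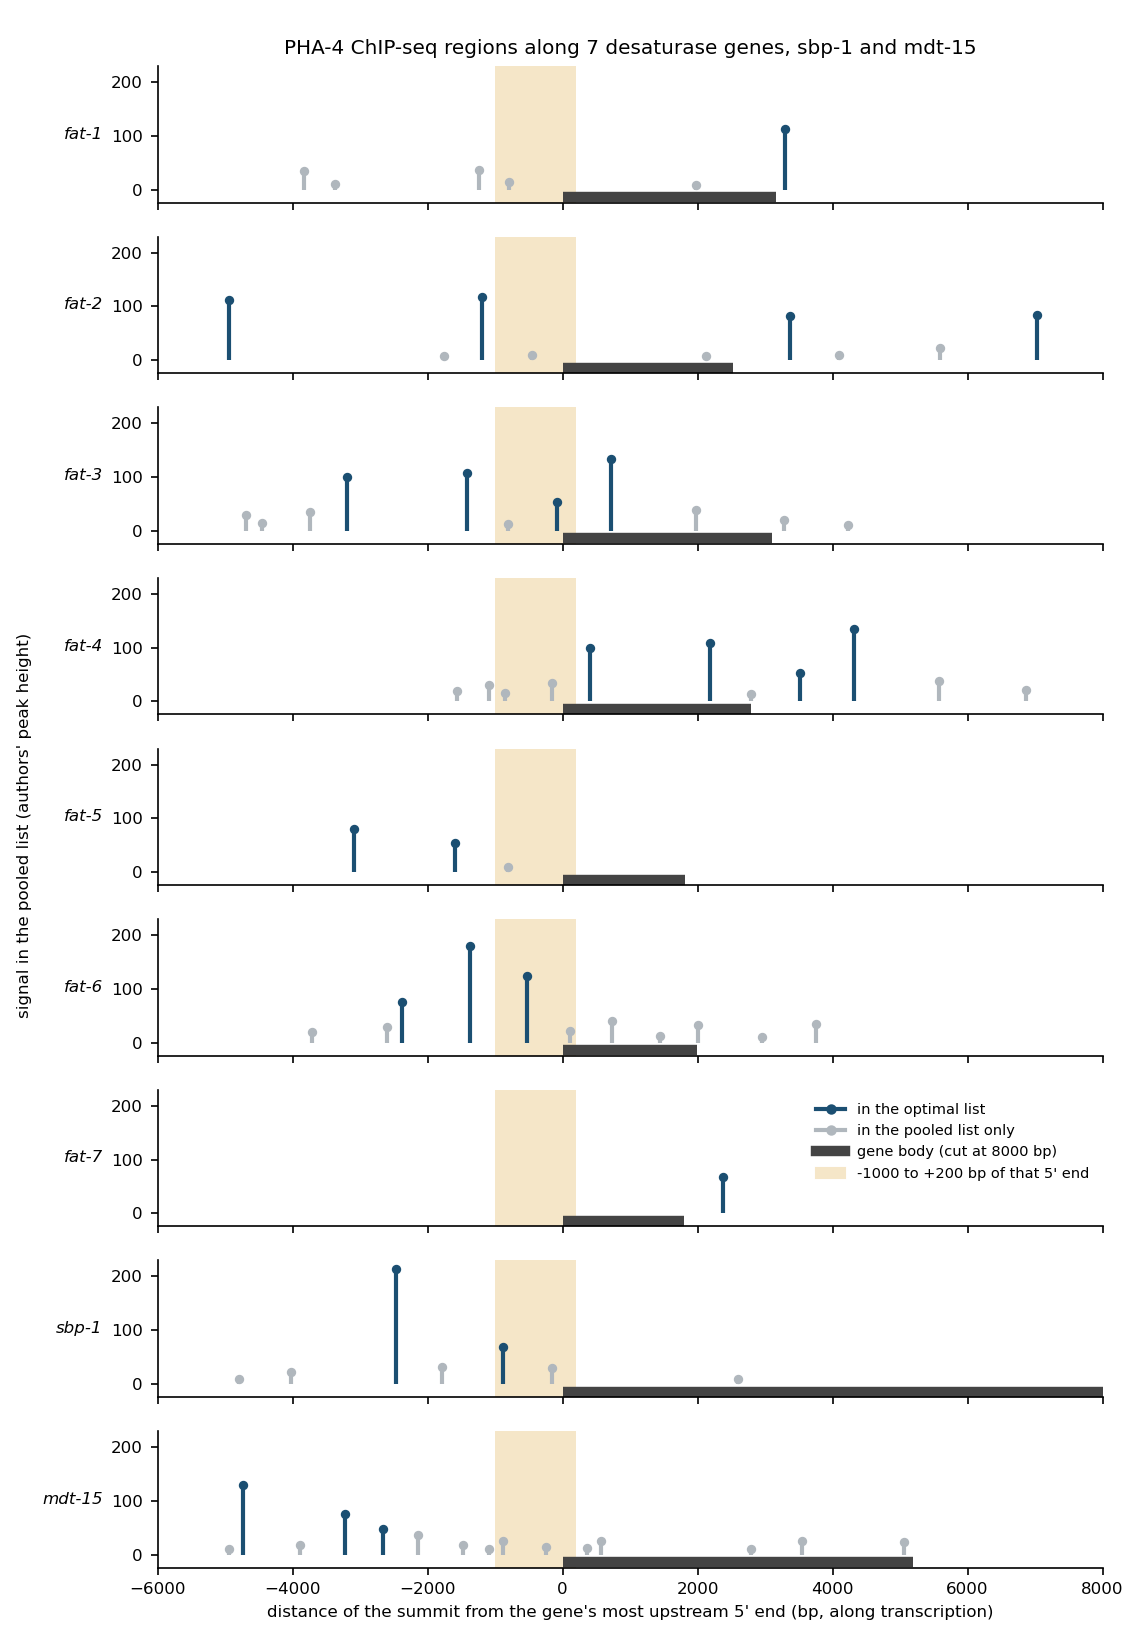
Regions of the pooled list along each gene, placed by the distance of the summit from the gene's most upstream 5' end (x axis, bp) with their signal (y axis, the authors' peak height); dark stems are in the optimal list and pale stems are not. Among the desaturase genes the highest stems reach 134 at fat-3 and fat-4, which share that peak, and 181 at fat-6, and the highest of all reaches 214 at sbp-1, while fat-7 has no region of either kind in its window; shading marks the window of the most upstream 5' end only, so the fat-4 stems called through internal 5' ends lie outside it.

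The genes of the first double bond, fat-5, fat-6 and fat-7, differed from one another. The fat-6 gene (chromosome IV, 11913692 to 11915687, minus strand) encodes, like fat-7, an enzyme that makes oleic acid from stearic acid, and fat-5 encodes the one that acts on palmitic acid. At fat-6 a peak at 11916127 to 11916293 had its summit 526 bp upstream of the gene, between genes. Its signal was 124 (rank 2154 of the optimal list), and its relative signal was 1.52 in replicate 1 and 1.45 in replicate 2, a mean of 1.49 ± 0.05 (SD, n = 2). The coefficient of variation between the replicates was 3.06%, against a median of 19.2% over all optimal peaks matched in both replicates. This summit was nearer to the 5' end of ZK822.9, a short gene on the other strand, 266 bp downstream of that end and past the gene itself, and it also lay in the promoter window of ZK822.10.

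A higher peak stood further from fat-6, with its summit 1374 bp upstream and only 76 bp upstream of ZK822.10, whose window holds it. Its signal was 181 (rank 975), with relative signal of 1.58 in replicate 1 and 2.32 in replicate 2. The next summit, 2382 bp upstream of fat-6, lay in the 3' untranslated region of ZK822.1, with a signal of 76.6 and relative signal of 0.53 and 0.90 in replicates 1 and 2. Both replicates thus placed the 2 nearer peaks above a typical optimal peak and the third below it. In the gene itself the pooled list held 3 regions of lower height, the highest at 40.9, just under the lowest optimal signal of 41.4.

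The fat-7 gene (chromosome V, 7151353 to 7153146, minus strand) had no region in its promoter window in the pooled list or in either replicate's list. Its area held 1 optimal peak, 582 bp beyond the 3' end of the gene and 57 bp upstream of F10D2.8, the nearest 5' end. That peak had a signal of 67.1 and relative signal of 0.90 and 0.71 in replicates 1 and 2. The coding sequences of fat-6 and fat-7 matched at 84.2% of aligned positions, with a longest shared run of 44 bases, and the 1000 bases upstream matched at 50.5%, against 49.5% for the highest of the other desaturase pairs. How reads matching both genes were handled was not given in the sources used here. Both the fat-6 and the fat-7 peaks themselves lay outside both coding sequences.

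The fat-5 gene (chromosome V, 17725004 to 17726818, plus strand) had its peaks upstream of the window. The nearer summit lay 1592 bp upstream, with a signal of 54.0 and relative signal of 0.79 in replicate 1 and 0.58 in replicate 2, low in both. A second stood 3083 bp upstream, at 79.96, with 0.96 and 0.90 in replicates 1 and 2, and was slightly nearer to the 5' end of str-77, a chemoreceptor gene, at 2974 bp. Within the fat-5 window the pooled list held 1 weak region of signal 8.996.

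The genomic sequence 50 bp to each side of the summit is shown for the peaks that decide these calls, at fat-6 and fat-5, on the plus strand of WBcel235 from RefSeq. Capitals mark words of the FoxA family (TATTTAC or TATTGAC or TGTTTAC or TGTTGAC), the GATA word TGATAA or the GA repeat GAGAGAG, on either strand. No such word lay in the fat-6 window, whereas the fat-5 window held TATTGAC and, 7 bp left of the summit, TGATAA.
fat-6 summit 526 bp upstream, chrIV:11916163-11916263: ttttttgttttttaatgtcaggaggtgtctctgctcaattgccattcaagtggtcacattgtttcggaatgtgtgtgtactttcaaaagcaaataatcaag
fat-5 summit 1592 bp upstream, chrV:17723362-17723462: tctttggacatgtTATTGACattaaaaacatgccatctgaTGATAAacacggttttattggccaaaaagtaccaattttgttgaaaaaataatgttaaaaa

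The next enzymes in the path, FAT-2 and FAT-1, lie side by side on chromosome IV. FAT-2 makes linoleic acid from oleic acid, and FAT-1 adds the double bond nearest to the methyl end, an activity that mammals lack. The fat-2 gene (13323873 to 13326395, plus strand) missed the promoter call by distance: its own peak had a summit 1197 bp upstream, beyond the window. The signal there was 117 (rank 2425), and relative signal was 1.40 in replicate 1 and 1.35 in replicate 2, or 1.38 ± 0.03 (SD, n = 2), among the steadiest of the 19 peaks. For comparison, the called summit farthest out, at sbp-1, lay 888 bp upstream.

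Between the genes, 126 bp past the 3' end of fat-1 (13315644 to 13318811, plus strand), stood a peak of signal 113 that both areas share. It was 3293 bp from the 5' end of fat-1 and 4936 bp from that of fat-2, just inside the 5 kb limit, while the next summit beyond that limit at fat-2 was at 5672 bp. Replicate 1 gave it a relative signal of 0.52 and replicate 2 one of 1.66, on opposite sides of the typical peak. Its coefficient of variation of 74.5% was the highest of the 19 peaks and exceeded that of most of the list (percentile 97.6). Upstream of fat-1 the highest region lay at 1244 bp in the pooled list, with a signal of 37.1 and rank 8543, below the lowest optimal signal. Replicate 1 had a region there at rank 6369 and replicate 2 at rank 9566.

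Downstream of fat-2 stood 2 more peaks that were nearer to other genes. A peak 843 bp past its 3' end, of signal 82.6, was nearest to far-6, a fatty acid and retinol binding protein gene, at 1121 bp upstream of it. Its relative signal was 0.58 in replicate 1 and 1.14 in replicate 2. The other lay in an intron of pqn-74, 345 bp inside that gene and within 5 kb of an internal 5' end of fat-2, with a signal of 84.2 and relative signal of 1.42 and 0.82 in replicates 1 and 2. The replicates did not order these 2 peaks the same way.

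The sequence at the upstream fat-2 summit had 51.5% G and C, the highest of the 19 windows, whose median was 35.6% against 40.6% for all optimal peaks. It held none of the words searched, while the window past fat-1 held TGATAA on the minus strand.
fat-2 summit 1197 bp upstream, chrIV:13322626-13322726: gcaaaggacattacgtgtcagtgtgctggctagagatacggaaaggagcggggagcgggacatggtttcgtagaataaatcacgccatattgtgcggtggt
fat-1 summit 126 bp past the gene, chrIV:13318887-13318987: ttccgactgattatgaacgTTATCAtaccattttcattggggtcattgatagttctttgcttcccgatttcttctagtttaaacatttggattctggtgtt

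The genes of the long polyunsaturated acids, fat-4 and fat-3, shared a set of peaks. FAT-3 acts on linoleic and alpha-linolenic acid, and FAT-4 carries out a later desaturation, to arachidonic and eicosapentaenoic acid. The genes follow each other on the plus strand of chromosome IV, fat-4 at 9799429 to 9802226 and fat-3 at 9803023 to 9806119, with 796 bp between them. Each had the same 4 optimal summits in its area, and 4.35% of protein-coding genes had 4 or more. The next optimal summit lay 37463 bp from fat-4.

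At fat-3 a peak sat at the start of the gene, with its summit 80 bp upstream, and a higher one sat in an intron 725 bp downstream of the most upstream 5' end. The summit at the start had a signal of 53.6 (rank 6364) and relative signal of 0.73 in replicate 1 and 0.68 in replicate 2, or 0.71 ± 0.04 (SD, n = 2). The intronic one had a signal of 134 (rank 1882) and relative signal of 1.03 and 1.80 in replicates 1 and 2, or 1.42 ± 0.54 (SD, n = 2). In both replicates the intronic peak was the higher of the pair. It counts as a promoter peak through a second annotated 5' end, which it precedes by 770 bp. With it, fat-3 had the highest promoter peak of the 9 genes, in place 1669 of the 4796 genes called, between ttc-37 at 134.06 and rsf-1 at 133.98.

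Both peaks of fat-4 lay in its introns. The one 400 bp downstream of the gene's start had a signal of 100 (rank 3077) and relative signal of 0.60 in replicate 1 and 1.42 in replicate 2. The other, 2183 bp downstream, had a signal of 108 (rank 2726), with 1.03 and 1.36 in replicates 1 and 2. They were called because they lay 466 and 293 bp upstream of annotated internal 5' ends. With only the most upstream 5' end of each gene, an alternative chosen after seeing the data, fat-4 was not called. Near its start the pooled list held a region 149 bp upstream with a signal of 34.2, under the optimal range.

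The 4 windows of this locus are printed because both calls rest on them. The FoxA words were in none of them. TGATAA lay in both fat-4 windows, and the intronic fat-3 window held a GA repeat centred 3 bp from the summit.
fat-4 summit 400 bp downstream, chrIV:9799779-9799879: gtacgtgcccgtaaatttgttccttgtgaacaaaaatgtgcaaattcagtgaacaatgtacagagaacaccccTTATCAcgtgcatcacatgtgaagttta
fat-4 summit 2183 bp downstream, chrIV:9801562-9801662: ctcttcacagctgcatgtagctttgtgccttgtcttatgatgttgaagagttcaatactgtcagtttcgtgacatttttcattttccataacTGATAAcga
fat-3 summit 80 bp upstream, chrIV:9802893-9802993: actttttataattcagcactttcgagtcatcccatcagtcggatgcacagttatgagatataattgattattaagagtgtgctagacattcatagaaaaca
fat-3 summit 725 bp downstream, chrIV:9803698-9803798: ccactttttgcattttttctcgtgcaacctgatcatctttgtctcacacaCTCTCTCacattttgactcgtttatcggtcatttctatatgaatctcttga

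Of the regulators, sbp-1 was called and mdt-15 was not. The sbp-1 gene (chromosome III, 11428367 to 11442566, minus strand) had a summit 888 bp upstream, with a signal of 68.3 (rank 5012) and relative signal of 0.58 in replicate 1 and 0.87 in replicate 2, or 0.72 ± 0.21 (SD, n = 2). The highest of all 19 peaks stood further out, 2465 bp upstream, at 11444844 to 11445140. Its signal was 214 (rank 621), and relative signal was 1.52 in replicate 1, where it ranked 2181, and 2.92 in replicate 2, where it ranked 339. Both replicates held it above the peak in the window. It was in no gene's promoter window and nearer to the 5' end of sbp-1 than to that of any other protein-coding gene. The 14200 bp body of sbp-1 held no optimal summit.

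The mdt-15 gene (chromosome III, 5828557 to 5833751, minus strand) had 3 optimal summits in its area, all upstream and all nearer to W04D12.1, a short gene on the other strand. They lay 2652, 3228 and 4737 bp upstream of mdt-15 with signals of 47.2, 75.0 and 130, lowest at the nearest. Both nearer ones were in the promoter window of W04D12.1, the second in its coding exon. Relative signal of the farthest was 1.63 in replicate 1 and 1.47 in replicate 2, and that of the nearest was 0.73 and 0.50 in replicates 1 and 2. In the mdt-15 window itself the pooled list held 2 regions, the higher at 26.0 (rank 11185). The 5 genes without a call were thus either empty there in the pooled list, as at fat-7, or held regions of 8.78 to 26.0.

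The sbp-1 windows are shown because 1 of them has a FoxA word at its summit. TGTTGAC lay on the minus strand, centred 1 bp from the summit in the promoter window, with TGATAA 23 bp away. In the higher, farther peak TATTTAC lay 47 bp from the summit.
sbp-1 summit 888 bp upstream, chrIII:11443404-11443504: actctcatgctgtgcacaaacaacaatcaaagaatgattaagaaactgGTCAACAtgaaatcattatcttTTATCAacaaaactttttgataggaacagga
sbp-1 summit 2465 bp upstream, chrIII:11444981-11445081: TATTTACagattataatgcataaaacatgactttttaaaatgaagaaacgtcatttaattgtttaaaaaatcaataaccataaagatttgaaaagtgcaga

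**Figure D2:**
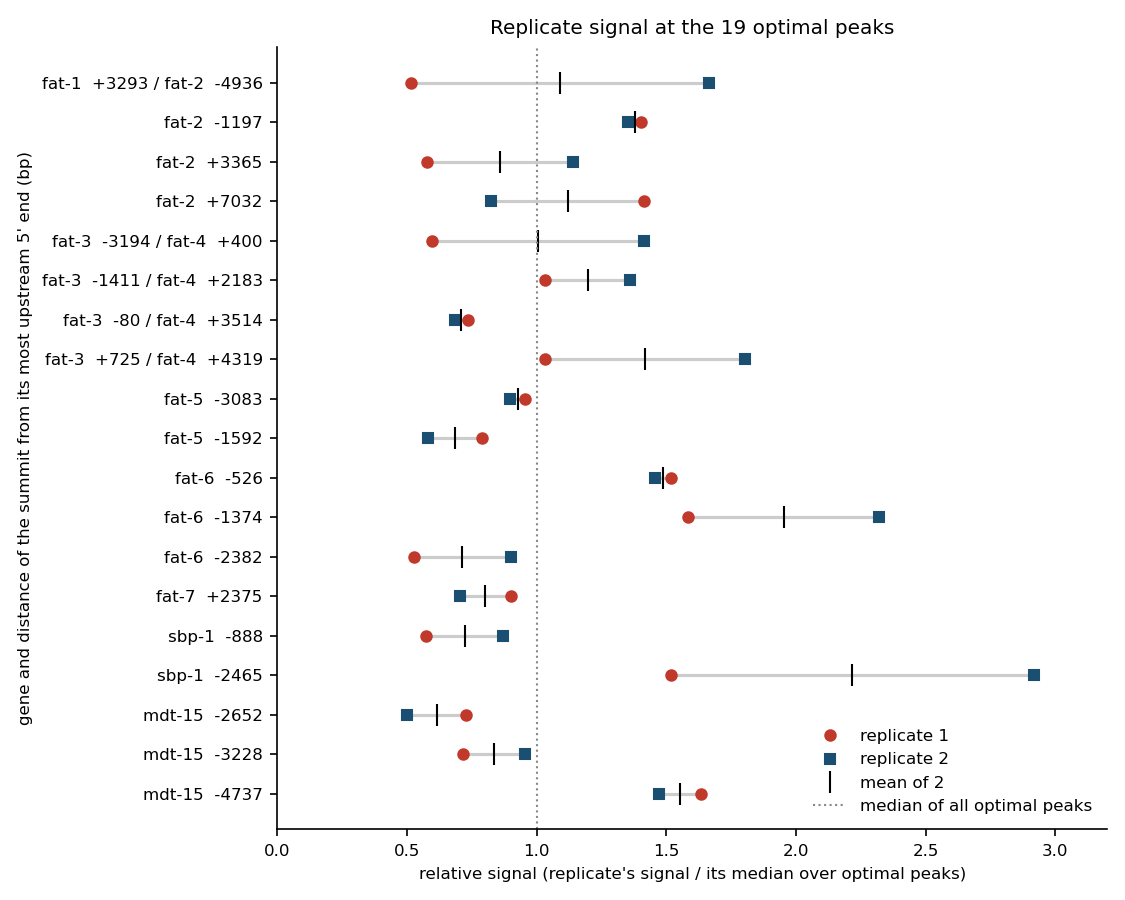
Relative signal (x axis, the replicate's signal over its median at optimal peaks) of the 19 peaks in replicate 1 (circles) and replicate 2 (squares), with their mean (bars) and gene and distance of each summit on the y axis. The replicates nearly coincide at fat-2 (-1197), fat-6 (-526) and fat-5 (-3083) and lie farthest apart at sbp-1 (-2465), 1.52 and 2.92, and past fat-1, 0.52 and 1.66.

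Replicate spread varied widely among the 19 peaks. The coefficient of variation of relative signal ran from 2.44% at the upstream fat-2 peak to 74.5% past fat-1, with a median of 26.5%, against 19.2% for all 7739 optimal peaks matched in both replicates. It was under 10% at 5 peaks and above the list's median at 13. Relative signal was higher in replicate 2 at 10 of the 19, against 52.4% of all matched peaks. Dividing each replicate by its own median draws the share over the list towards even. It therefore says nothing of the undivided signal, whose median at optimal peaks was 28.7 in replicate 1 and 58.1 in replicate 2. All 19 had a matching region in each replicate's list, and at 18 the q-value stood at the ceiling of the list, 4.15 as −log10, so it does not rank them.

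The relaxed lists reached more of the genes. The pooled list put a region in the promoter window of 8 of the 9 genes, against 39.4% of protein-coding genes, and both replicate lists together in that of 5, against 34.7%. These were fat-3, fat-4, fat-6, sbp-1 and mdt-15. The pooled list added fat-1, fat-2, fat-5 and mdt-15 to the genes called, all through regions below the lowest optimal signal of 41.4. The highest such region had a −log10 q of 0.39 at fat-1, 0.22 at fat-2, 0.19 at fat-5 and 1.39 at mdt-15. Presence in the relaxed lists is therefore not a call of a peak.

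Among the genes called, the 4 were of ordinary height. Their highest promoter peaks had signals of 134 at fat-3, 124 at fat-6, 108 at fat-4 and 68.3 at sbp-1, against a median of 104 over all 4796 genes called. The first 3 lay above that median, at percentiles 65.2, 61.2 and 52.9, and sbp-1 below it at 24.3. The values of fat-3 and fat-4 rest on intronic peaks called through internal 5' ends. With only the most upstream 5' end, the promoter peak of fat-3 was the one of signal 53.6, and fat-4 was not called. No test was made, since 2 replicates of 1 group offer none for these values.

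**Figure D3:**
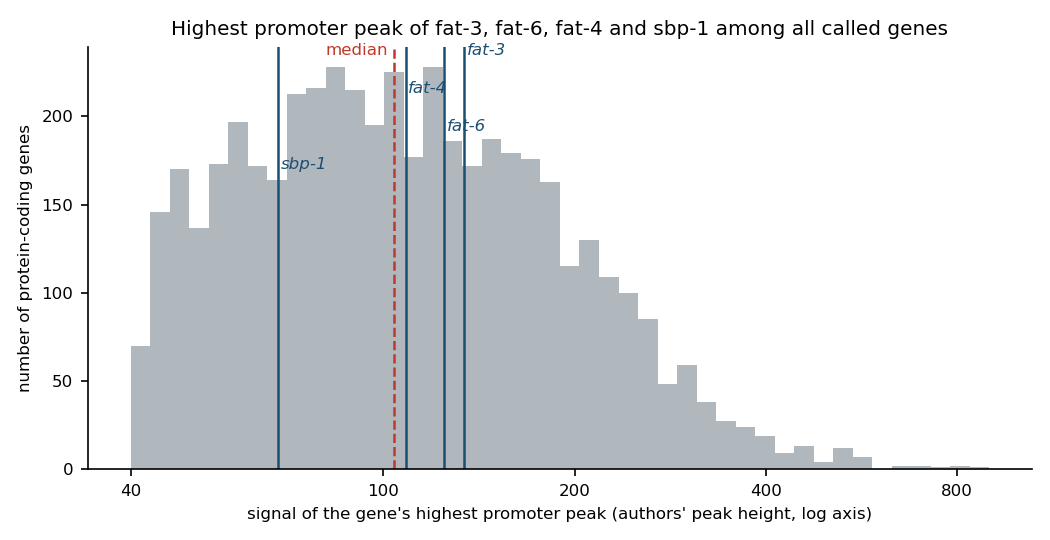
Number of protein-coding genes (y axis) by the signal of their highest promoter peak (x axis, the authors' peak height, log scale), for the 4796 genes called. Vertical lines mark fat-3 (134), fat-6 (124), fat-4 (108) and sbp-1 (68.3), and the dashed line marks the median of 104. The fat-3 and fat-4 peaks are intronic and count through internal 5' ends.

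Across the 19 peaks, a FoxA word lay within 50 bp of the summit at 5, or 26.3%, against 21.7% of all optimal peaks. Within 25 bp the order turned, with 2 of 19, or 10.5%, against 12.3%. TGATAA, the core bound by GATA factors such as the intestinal ELT-2, lay at 9, or 47.4%, against 18.4%. The GA repeat lay at 1 of 19, against 10.8%. Both a FoxA word and TGATAA were found at 3 peaks, the nearer fat-5 peak, that past fat-7 and the nearer sbp-1 peak, against 3.82% of the list. Neither was found at 8, among them both summits nearest to fat-6, the upstream fat-2 summit and all 3 at mdt-15. In their promoter windows, from the most upstream 5' end, fat-4, fat-5, fat-7, sbp-1 and mdt-15 held a FoxA word, or 55.6% of the 9 against 49.7% of all protein-coding genes. TGATAA lay in the promoter windows of 5 as well, fat-2, fat-4, fat-7, sbp-1 and mdt-15, or 55.6% against 71.97% of all genes. These shares rest on few peaks and genes, and no difference was tested. The summit windows of the 19 had a median of 35.6% G and C, against 40.6% for all optimal peaks. Whether base content bears on the share of TGATAA was not tested. Peaks at neighbouring genes share sequence context, so these are descriptions of these letters and not of binding by any factor.

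Other genes of lipid metabolism, taken as lists by function, were counted the same way. Of 84 genes in 8 lists 45 were called, or 53.6% (95% Wilson interval 43.0 to 63.8), against 24.0% of protein-coding genes. Among optimal peaks at or above the median signal, 21 of the 84 were called, or 25%, against 15.1% of protein-coding genes. The median of their highest promoter peaks was 79.7, against 104 over all genes called, so more of them were called, at lower heights. Other regulators of the desaturases were called in 8 of 11 cases. They were led by nhr-49, a nuclear receptor that drives fat-5, fat-6 and fat-7 expression, with a signal of 306 (rank 181) and relative signal of 3.48 in replicate 1 and 3.66 in replicate 2. Next came nhr-66, a partner receptor of NHR-49, at 197, and iglr-2, which acts with PAQR-2 in membrane fluidity, at 104 through a peak nearest to ZC262.2. Thus nhr-49 carried a higher promoter peak than any of the 9 genes, in both replicates.

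For each count below, the share over all protein-coding genes was 24.0%. The list for elongases, which lengthen the chains that desaturases act on, had 5 of 10, elo-6 (signal 89.99), elo-2 (85.7) and elo-5 (79.7) highest. Beside the elo genes it holds let-767, which was not called. The list for fatty acid synthesis had 3 of 5, namely acly-1 (ATP citrate lyase, 121), mlcd-1 (101, a peak nearest to idhg-1) and pod-2 (acetyl-CoA carboxylase, 47.8). In that list mlcd-1 encodes malonyl-CoA decarboxylase, which is not a synthesis enzyme, and fasn-1 and acly-2 were not called. Acyl-CoA synthetases had 10 of 21, with acs-2, a mitochondrial enzyme under NHR-49 control, at 176, acs-13 at 108 and acs-7 at 104. Lipid-binding proteins had 4 of 9, lbp-4 (125), lbp-7 (72.5) and lbp-9 (48.2) highest. Beta-oxidation had 6 of 10, led by cpt-2 (114), a carnitine palmitoyltransferase, ech-1.2 (101) and acox-1.1 (87.2).

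Fat storage and lipolysis had 9 of 11, against 24.0% of protein-coding genes. Among optimal peaks at or above the median signal it had 4 of 11 and the other regulators 5 of 11, against 15.1% of protein-coding genes. Its leading genes were seip-1, the worm seipin of lipid droplets, at 194, dgat-2, a triglyceride synthesis enzyme, at 120 through a peak nearest to fbxa-108, and lipl-2, a lysosomal lipase, at 99.7. Yolk lipid transport, the vitellogenins and their receptor rme-2, had 0 of 7, which allows a share of up to 35.4% (Wilson). No list was tested against another, and intervals cover the counting of genes only.

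**Figure D4:**
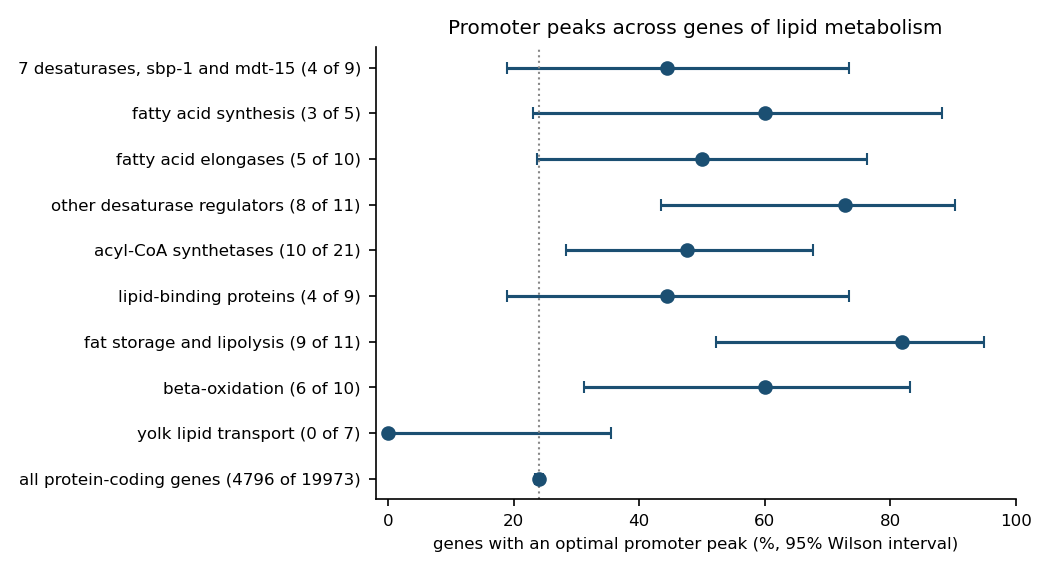
Share of genes with an optimal promoter peak (x axis, %) for the 9 genes, 8 other lists of lipid metabolism and all protein-coding genes (y axis); bars are 95% Wilson intervals. The 9 genes stand at 44.4%, storage and lipolysis at 81.8%, yolk transport at 0 and all genes, marked by the dotted line, at 24.0%.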

How the data were processed

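PHA-4 ChIP-seq peak lists of 2 biological replicates were used. Per the file manifests deposited with the samples, each relaxed list came from 1 replicate's alignment and a control file common to both, the pooled list from both alignments, and the optimal list from these 3. The deposited signal is the authors' peak height, and the deposited q-value is given as −log10. Peak caller, aligner and depth were not given in the sources used here. Lists on build ce10 were not used.

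Genes came from Ensembl release 115 on WBcel235, the assembly of ce11; all regions lay inside its chromosomes. Alternative 5' ends and sequence came from RefSeq, whose 5' ends matched 19546 of 19973 genes by name. A replicate region belonged to an optimal peak if they overlapped by at least 1 bp, the highest being taken. Coding and upstream sequences were aligned globally (match 2, mismatch -1, gap opening -5, extension -0.5). Placement was tested on simulated data. With 1 group no test was made.

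The 9 genes and the other lists were chosen with earlier results of these data known. Genes named are these 9, genes nearer to their peaks, up to 3 genes per list with the highest promoter peaks, and the genes next above and below fat-3 in height; F10D2.8, far-6, pqn-74, str-77, ZK822.1, ZK822.9, ZK822.10, W04D12.1, idhg-1, ZC262.2 and fbxa-108 are named as nearest to a summit or holding it. Of the list symbols, acs-8 matched no gene, and fasn-1, acly-2 and let-767 are named as not called. Alternatives were other windows, whole regions, nearest 5' ends, peaks of higher signal, each replicate alone and RefSeq 5' ends. Python 3.11.15, NumPy 2.4.6, pandas 2.3.3, SciPy 1.17.1, Biopython 1.88 and Matplotlib 3.10.9 were used.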

Additional observations from a re-analysis of the deposited data

How the results depend on the processing

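The promoter call at fat-3 held under every alternative listed here. The count of 4 called genes fell to 2 (fat-3 and fat-4) where windows reached 500 bp upstream and 100 bp downstream, or 22.2% against 19.5% of protein-coding genes. It was 6 with a window reaching 2000 bp upstream, which added fat-2 and fat-5, or 66.7% against 29.4%. Given only to the nearest 5' end within 2000 bp, peaks called 5 genes, with fat-2 and fat-5 in and fat-6 out, or 55.6% against 23.2%. Among optimal peaks at or above the median signal it was 3, without sbp-1, or 33.3% against 15.1%. With only the most upstream 5' end it was also 3, without fat-4, against 22.3% of all genes. Whole regions, RefSeq 5' ends and the 7847 highest regions of replicate 1 or of replicate 2 gave the same 4 genes. The number of different peaks near the 9 genes was 10 within 2 kb and 24 within 10 kb, against 19 within 5 kb. Peaks with a FoxA word numbered 2 within 25 bp (10.5% against 12.3% of all optimal peaks) and 8 within 100 bp (42.1% against 29.0%), against 5 within 50 bp. Of the other 84 genes, 35 were called with the narrower window (41.7% against 19.5%) and 49 with the wider one (58.3% against 29.4%). Among the higher peaks 21 were called (25% against 15.1%). There 6 of the 8 lists fell by over 1.5 times, while the share of all protein-coding genes itself fell from 24.0% to 15.1%. Matching by summits within 200 bp moved no relative signal beyond its SD. Read depth is unknown, so a region absent from a list of 30000 was not detected at an unknown depth.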

Other observations

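Most of these loci stood apart from other peaks. Outside the 5 kb area, the next optimal summit was over 20 kb from a 5' end at 6 of the 9 genes, fat-3, fat-4, fat-5, fat-6, fat-7 and sbp-1, at 21328 to 41057 bp. This was so at 14.8% of the 9806 protein-coding genes with a summit in their area. The median distance was 27500 bp over the 9 genes, against 8832 bp over those genes. The limit of 20 kb was chosen after the distances were seen, and fat-3 and fat-4 share their locus, so the 6 are not independent.

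Several summits also lay together, with 3 or more in the area of 5 of the 9 genes, against 10.7% of protein-coding genes. The exceptions were fat-1, fat-5, fat-7 and sbp-1. Of the 5, fat-3 and fat-4 hold the same summits, so the 5 are not independent. These 5 genes also have 2 to 4 annotated 5' ends, against 1 at each exception, and each further end can widen the area searched. Counted from the most upstream 5' end alone, only the fat-2 summit at 7032 bp lay beyond 5 kb. Each of the 5 genes thus still held 3 or more. At fat-6 and mdt-15 all 3 summits were nearer to other genes, so the gene to which such a group belongs cannot be told from position.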
